A study of Rattus norvegicus with 421 samples.

Results

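C.I Direct Black (CIDB) is an azo dye that was given by oral gavage, in corn oil, at 146 mg/kg per day to male Wistar Hanover rats that were 8 to 10 weeks old. Livers were taken 1 day after the last of 3 or 7 daily doses. The members were chosen by their array titles: 6 CIDB arrays (CIDB_3d and CIDB_7d) and the 6 vehicle arrays named as their controls (CO_1C_3d and CO_1C_7d, corn oil alone), 12 of 421 arrays in all, with 3 animals in each group and 1 array for each animal. The 3 animals had been selected from a larger treatment group on their liver histopathology, and the differences below therefore describe chosen animals. The errors below use 1 variance for each probe set, pooled over the groups of all 421 arrays, and not the spread of these animals alone. DMN (4 mg/kg) and 2-NF (44 mg/kg) were given for the same 3 and 7 days, 3 arrays for each, and are named in the labels with the same vehicle arrays.

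Azo dyes built on benzidine are split, largely by gut bacteria, into aromatic amines. Liver enzymes oxidise these amines to products that bind DNA. DNA damage stabilises p53, a transcription factor that induces genes for cell cycle arrest, its own degradation and apoptosis. NRF2, a transcription factor that electrophiles activate, and CAR, PXR and the Ah receptor, which sense foreign compounds, induce in the same tissue the enzymes that detoxify them.

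Each value below is a log2 RMA value, the background-corrected and quantile-normalized summary of the probes of 1 probe set, and a difference of 1 is a doubling. The arrays held 15866 probe sets, from which 1 probe set was kept for each of 10411 genes. A gene is called changed where limma's moderated test gave an adjusted p under 0.05 and the difference was at least 1.5-fold. The vehicle arrays of day 7 against those of day 3 gave 0 called probe sets (953 had an unadjusted p under 0.05). Hepatocyte genes (18 measured, among them the secreted plasma proteins) averaged between 13.30 and 13.48 on all 12 arrays, and the muscle, adipose and pancreas lists held 0 called genes at either day. RNA of the whole liver was measured, so fewer cells of a type and less RNA per cell cannot be told apart for any marker below.

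CIDB changed the liver transcriptome at both days, and more genes were called after 7 doses than after 3. At day 3, 349 probe sets (2.20%) were called. These stood for 93 genes that were higher (0.893% of genes tested) and 147 that were lower (1.41%). At day 7, 633 probe sets (3.99%) were called, with 257 genes higher (2.47%) and 199 lower (1.91%). The arrays did not overlap between CIDB and vehicle in 233 of the 240 called genes at day 3 and in 437 of 456 at day 7, which the call itself nearly fixes. Over all genes tested, 23.7% did not overlap at day 3 and 29.4% at day 7. The counts of each gene list below stand against the called shares of all genes, 0.893% higher and 1.41% lower at day 3 and 2.47% higher and 1.91% lower at day 7. The median difference over all genes was 0.00 at day 3 and -0.01 at day 7.

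The 2 days share no arrays. Of the genes called higher at day 3, 77 were also called higher at day 7, which is 82.8% of the day 3 list and 30.0% of the day 7 list. Of the genes called lower at day 3, 74 were called lower again (50.3% of the day 3 list, 37.2% of the day 7 list). Over all genes the differences of the 2 days correlated with r = 0.629, a description across genes, which are not independent replicates. Of the 153 genes called at both days, 108 had the larger difference at day 7.

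**Figure D1:**
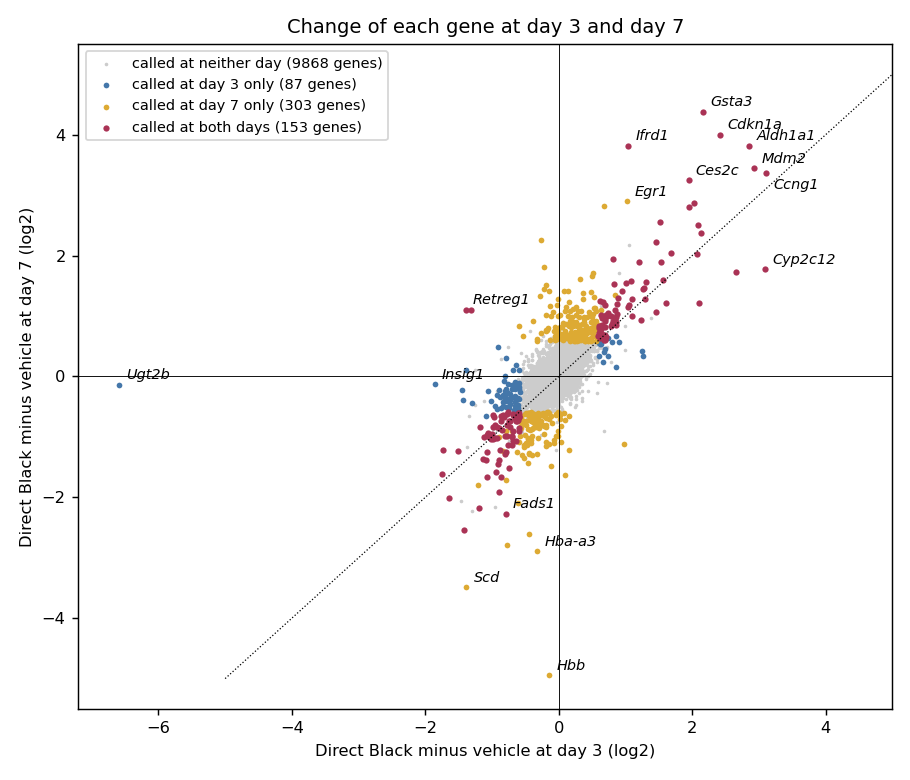
Difference between CIDB and vehicle (log2, mean of 3 arrays minus mean of 3 arrays) for each gene at day 3 (horizontal axis) and day 7 (vertical axis). Colours give the day at which a gene was called and the dotted line marks equal differences. Ccng1 and Mdm2 lie near the line, Cdkn1a, Gsta3 and Ifrd1 lie above it, and Hbb (-0.14 and -4.94) lies far below it.

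Targets of p53 rose at both days. Of 19 measured p53 targets, 6 were higher and 0 lower at day 3, against 0.893% of all genes, and 7 were higher and 2 lower at day 7, against 2.47% and 1.91%. The list's median difference was 0.31 at day 3 and 0.47 at day 7. All 6 genes of day 3 were again called at day 7: Ccng1, Mdm2, Cdkn1a, Phlda3, Plk2 and Zmat3.

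Ccng1 encodes cyclin G1, a p53 target that helps to restrain p53 itself. Its values were 11.01, 11.20 and 11.48 on the CIDB arrays of day 3 against 8.15, 8.04 and 8.16 in vehicle, and 11.60, 11.28 and 11.88 against 8.30, 8.13 and 8.25 at day 7. Every treated array lay more than 2.5 log2 units above every vehicle array. The rise was 8.65-fold at day 3 (log2 3.11 ± 0.17 SE, n = 3 and 3, adjusted p = 1.08e-44) and 10.3-fold at day 7 (3.36 ± 0.17, adjusted p = 1.37e-50). The change between the days, 0.25 ± 0.25, was not called (adjusted p = 0.782).

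Mdm2, the ubiquitin ligase that marks p53 for degradation, read 9.83, 9.84 and 10.64 at day 3 against 7.09, 7.14 and 7.30, and 10.41, 10.30 and 11.10 at day 7 against 7.36, 7.09 and 7.03. The groups were far apart at both days, with animal 3 the highest of each treated group. Mdm2 rose 7.60-fold at day 3 (2.93 ± 0.19) and 10.9-fold at day 7 (3.44 ± 0.19), and the change between days was not called (0.52 ± 0.26, adjusted p = 0.447). The other Mdm2 probe set rose by 1.94 and 2.37. Of the 136 group means of the whole series, CIDB at day 7 ranked first and CIDB at day 3 second for both Ccng1 and Mdm2.

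Cdkn1a encodes p21, the inhibitor of cyclin-dependent kinases that arrests the cell cycle. It read 12.06, 10.60 and 10.98 at day 3 against 9.18, 8.70 and 8.52, and 12.96, 12.40 and 12.98 at day 7 against 8.45, 8.71 and 9.19. The treated animals of day 3 were spread over more than 1 log2 unit, whereas those of day 7 lay close together. The rise was 5.32-fold at day 3 (2.41 ± 0.31) and 16.0-fold at day 7 (4.00 ± 0.31), and it was called larger at day 7 by 1.59 ± 0.44 (adjusted p = 0.0478). That last call was lost after another quantile normalization (1.45, adjusted p = 0.103) and when any 1 of 8 of the 12 arrays was left out. The other Cdkn1a probe set gave 2.29 and 4.81, and its change between days was also called (2.53, adjusted p = 0.00196).

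Phlda3, which blocks Akt signalling downstream of p53, rose by 1.69 ± 0.22 and 2.05 ± 0.22, and Plk2, a stress-induced kinase, by 1.26 ± 0.28 and 1.45 ± 0.28. Zmat3, a zinc finger protein that binds RNA, rose by 0.60 ± 0.10 at day 3, just over the 1.5-fold limit (0.57 and under it without CIDB animal 1 or 2 or vehicle animal 3), and by 0.83 ± 0.10 at day 7. Gdf15, a stress cytokine, came later: it read 6.51, 6.30 and 6.23 at day 3 against 5.96, 5.99 and 6.00, and 7.55, 7.04 and 7.41 at day 7 against 6.20, 5.91 and 6.07. Its difference of 0.37 ± 0.14 at day 3 was not called, that of 1.27 ± 0.14 at day 7 was, and the change of 0.91 ± 0.20 was called (adjusted p = 0.00446, but 0.0503 in a fit of the compared groups only).

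The called falls were Steap3, an iron reductase (-0.98 ± 0.14 at day 7), and Xpc, the damage sensor of nucleotide excision repair (-0.62 ± 0.19 at day 7). The Xpc call was lost without vehicle animal 1 or CIDB animal 3 of day 7. Gadd45a, a further stress gene of the list, was not called, with 0.31 ± 0.44 and 0.78 ± 0.44, and the remaining 9 members were not called at either day. Outside the list, Rps27l, which makes a ribosomal protein variant and is also known as a p53 target, rose by 0.86 ± 0.15 and 0.90 ± 0.15.

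**Figure D2:**
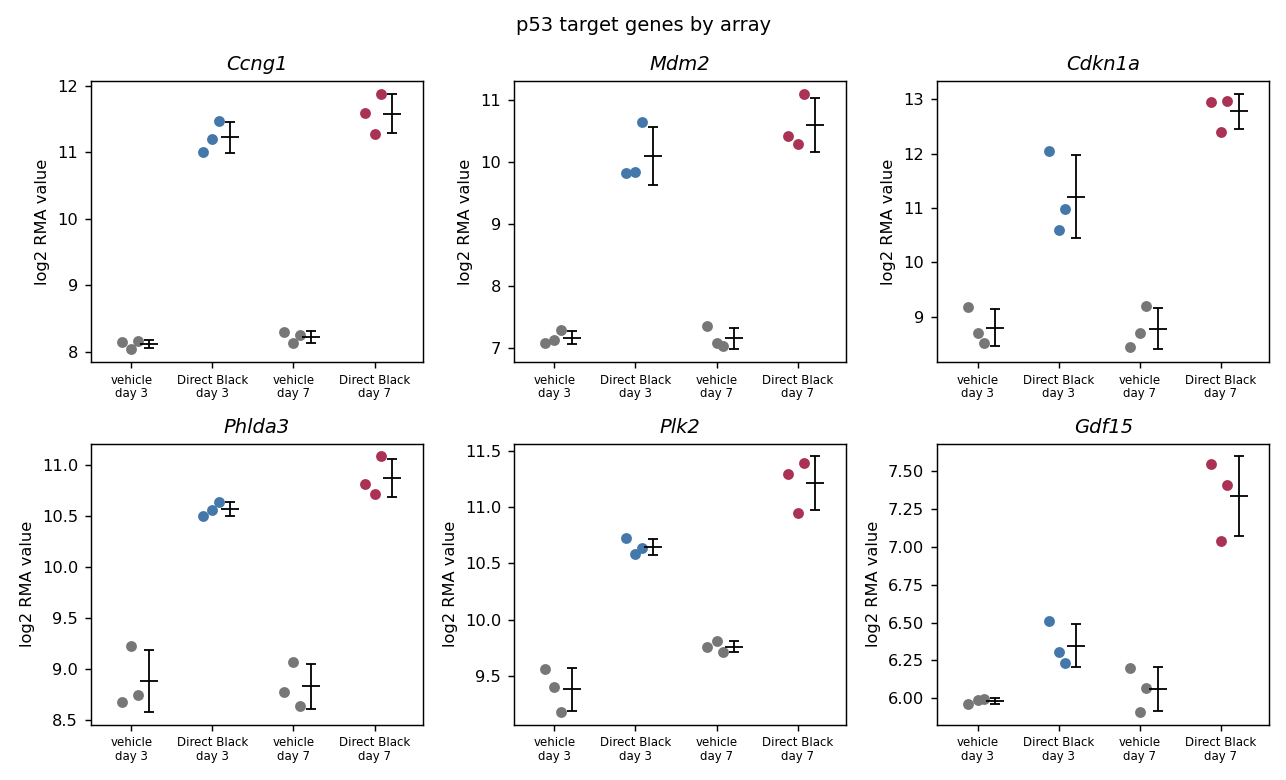
log2 RMA values of 6 p53 targets on each of the 12 arrays (points), with the mean and SD of the 3 arrays of a group (black). Ccng1, Mdm2, Cdkn1a, Phlda3 and Plk2 lie above vehicle on all CIDB arrays of both days, and Gdf15 is clearly separated at day 7, where it reads 7.04 to 7.55 against 5.91 to 6.20.

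The promoters of these genes (250 bases before to 50 after the start, RefSeq, build GRCr8) were searched on both strands for the p53 decamer, the unit that a full p53 site repeats. The promoter table held 16 of the measured p53 targets, of which 5 had a match, among them 2 of the 8 called members that had a promoter. A match was also found in 7.98% of all 33469 promoters of that length. Both called members are printed 5′ to 3′, with the match in capitals, because they are the called p53 targets with a match:
Cdkn1a: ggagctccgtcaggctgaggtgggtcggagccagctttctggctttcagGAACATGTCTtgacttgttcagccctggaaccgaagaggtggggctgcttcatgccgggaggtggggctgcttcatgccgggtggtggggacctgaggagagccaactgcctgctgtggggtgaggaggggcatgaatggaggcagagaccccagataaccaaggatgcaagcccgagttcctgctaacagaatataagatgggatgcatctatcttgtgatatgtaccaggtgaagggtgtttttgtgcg
Ccng1: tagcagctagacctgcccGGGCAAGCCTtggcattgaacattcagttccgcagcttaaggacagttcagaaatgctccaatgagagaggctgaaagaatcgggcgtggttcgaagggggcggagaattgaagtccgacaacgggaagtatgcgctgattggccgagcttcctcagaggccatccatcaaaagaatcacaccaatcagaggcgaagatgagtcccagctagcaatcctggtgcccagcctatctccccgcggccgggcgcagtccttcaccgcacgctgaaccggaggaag
The Cdkn1a window is chr20:7150682-7150981 on the + strand and the Ccng1 window chr10:25684827-25685126 on the - strand. Mdm2, Phlda3, Plk2 and Gdf15 had no match in these letters in this window.

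Of 23 measured genes of DNA repair, 1 was called at each day, and the list's median difference was -0.02 at both days. This gene was Mgmt, the methyltransferase that removes alkyl groups from guanine, which read 10.77, 10.21 and 10.63 at day 3 against 8.40, 8.28 and 8.71 and 11.41, 10.26 and 9.60 at day 7 against 8.29, 8.40 and 8.49. It rose by 2.08 ± 0.23 and by 2.03 ± 0.23, with the treated animals of day 7 spread over nearly 2 log2 units and still above all vehicle animals. Nhej1, a factor of double-strand break joining that was outside the list, read 8.43, 8.17 and 8.44 at day 3 and 9.28, 9.46 and 9.43 at day 7, against 6.33 to 6.66 on the 6 vehicle arrays. It rose by 1.94 ± 0.14 and then 2.80 ± 0.14, and the change of 0.85 ± 0.20 was called (adjusted p = 0.0107), though not without CIDB animal 2 of day 3 (0.77, adjusted p = 0.076).

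Detoxification enzymes also rose at both days. Of 26 measured NRF2 targets, 5 were higher and 1 lower at day 3, and 7 were higher and 1 lower at day 7, against 0.893% and 1.41%, and 2.47% and 1.91%, of all genes. The list's medians were 0.17 and 0.33. Gsta3, a glutathione transferase of the alpha class, read 9.28, 8.82 and 8.36 at day 3 against 7.24, 6.06 and 6.68, and 11.41, 10.31 and 10.29 at day 7 against 6.39, 6.55 and 5.92. Its rise of 20.9-fold at day 7 (4.38 ± 0.51, adjusted p = 1.5e-13) followed 4.46-fold at day 3 (2.16 ± 0.51). It was the largest of day 7 among the probe sets kept, 1 for each gene, while the other Cdkn1a probe set rose by 4.81. The change between days, 2.23 ± 0.72, was not called (adjusted p = 0.132).

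Aldh1a1, which oxidises retinal and other aldehydes, was nearly uniform in treated animals (12.94, 13.03 and 12.98 at day 3, 13.68, 13.38 and 13.43 at day 7) and varied from 9.14 to 10.74 over the vehicle animals. It rose by 2.85 ± 0.47 and 3.81 ± 0.47. Srxn1, which repairs oxidised peroxiredoxins, rose by 1.56 ± 0.19 and 1.60 ± 0.19, and Ephx1, the microsomal epoxide hydrolase, by 1.30 ± 0.17 and 1.27 ± 0.17. Akr7a3, an aldehyde reductase that also acts on aflatoxin, rose by 2.11 ± 0.32 and 1.21 ± 0.32. Gstm3 (1.10 ± 0.27) and Gstp1 (0.66 ± 0.17), glutathione transferases of the mu and pi classes, were called at day 7 and not at day 3. At day 7 the calls of Akr7a3 (0.98, adjusted p = 0.0532) and Gstm3 (0.75, adjusted p = 0.0816) were lost without CIDB animal 1, and Gstp1 stood at 0.41 against the mean of 3 corn oil groups, under the 1.5-fold limit.

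Nqo1, the quinone reductase often used to read NRF2, was not called. At day 7 it read 10.71, 9.65 and 10.25 against 10.06, 9.68 and 7.80 in vehicle, so that the groups overlapped and the difference of 1.03 ± 0.50 came with an adjusted p of 0.165. The member that fell was Pgd, an enzyme of the pentose phosphate pathway that also supplies lipid synthesis, with -1.01 ± 0.16 at day 3 and -1.01 ± 0.16 at day 7.

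The antioxidant response element TGACNNNGC, read on both strands, occurred in the promoter of 5 of the 22 measured NRF2 targets with a promoter in the table, among them 2 of 8 called members, and in 12.1% of all promoters. The called members with a match are shown, with the match in capitals:
Gsta3: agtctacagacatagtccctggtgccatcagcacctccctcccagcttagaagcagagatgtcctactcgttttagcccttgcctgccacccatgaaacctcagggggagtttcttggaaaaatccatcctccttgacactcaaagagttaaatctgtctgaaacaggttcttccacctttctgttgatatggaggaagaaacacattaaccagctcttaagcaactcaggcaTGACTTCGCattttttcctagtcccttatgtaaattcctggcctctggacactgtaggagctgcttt
Gstp1: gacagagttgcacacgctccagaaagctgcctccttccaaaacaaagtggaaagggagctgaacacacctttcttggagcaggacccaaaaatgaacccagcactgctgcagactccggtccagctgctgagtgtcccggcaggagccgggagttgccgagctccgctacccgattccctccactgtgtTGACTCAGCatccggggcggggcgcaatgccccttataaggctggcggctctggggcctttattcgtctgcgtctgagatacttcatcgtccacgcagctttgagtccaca
The Gsta3 window is chr9:31154739-31155038 on the + strand and the Gstp1 window chr1:210769656-210769955 on the - strand. Aldh1a1, Srxn1, Ephx1 and Akr7a3 held no match.

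Of 16 measured targets of CAR and PXR, 3 were higher and 1 lower at day 3, against 0.893% and 1.41% of all genes. At day 7, 6 were higher and 0 lower, against 2.47% and 1.91%. The rises at both days included Ephx1 and Akr7a3, already counted as NRF2 targets. Cyp2b3 and the measured Cyp3a genes of this list were not called at either day, and Cyp2b1 and Cyp2b2 were not among the measured members. The rises of day 7 included Cyp2a1 (0.61) and Abcb1a (0.62), both near the 1.5-fold limit. Cyp2a1 stood at 0.41 against the mean of 3 corn oil groups. Abcb1a stood at 0.55 without vehicle animal 3, while its other probe set rose by 1.01. Ces2c, a carboxylesterase, rose by 1.94 ± 0.23 and then 3.24 ± 0.23, and the change of 1.30 ± 0.32 was called. That call was lost without CIDB animal 2 or vehicle animal 2 or 3 of day 3, or CIDB animal 3 of day 7 (1.16 to 1.26, adjusted p from 0.0527 to 0.0834). Nr1i3, the gene of CAR itself, rose by 0.89 ± 0.28 and 1.30 ± 0.28, the first not called without CIDB animal 3 (0.67, adjusted p = 0.221) or vehicle animal 1 or 3. Ugt2b1, a glucuronosyltransferase, was called at day 7 (1.42). Por, which passes electrons to cytochromes P450, fell by 0.92 ± 0.22 at day 3, and its difference at day 7 was 0.49 ± 0.22, not called. The change between days, 1.41 ± 0.32, was called (adjusted p = 0.0045), as it was with the other Por probe set (1.36), but it was lost in a fit of the compared groups only (adjusted p = 0.158) and without CIDB animal 2 of day 3 or vehicle animal 2 of day 7. Among 6 targets of the Ah receptor, Cyp1a1 alone was called. It read 7.53, 6.97 and 7.33 at day 3 against 7.70, 7.76 and 7.01, and 8.54, 8.70 and 8.91 at day 7 against 7.39, 6.61 and 6.75. Its difference was -0.21 ± 0.45 at day 3 and 1.80 ± 0.45 at day 7, and the change between them was not called (adjusted p = 0.114).

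Cyp2c12, a cytochrome P450 that is far more abundant in female than in male rat liver, read 12.15, 11.51 and 11.89 at day 3 against 9.78, 7.44 and 9.06, and 11.09, 10.97 and 10.05 at day 7 against 9.81, 8.45 and 8.51. The groups did not overlap at either day, although the vehicle animals differed among themselves by more than 2 log2 units. It rose by 3.09 ± 0.48 and 1.78 ± 0.48. Of 15 measured female-biased genes, 2 were higher and 1 lower at day 3, and 3 were higher and 1 lower at day 7. Their medians were -0.12 and -0.10, and the 2 rises at both days were Cyp2c12 and Gsta3, counted above as an NRF2 target. Of 14 male-biased genes, 0 were higher at either day, 1 was lower at day 3 and 2 were lower at day 7. Of all genes, 0.893% were called higher and 1.41% lower at day 3, and 2.47% and 1.91% at day 7. The male-biased falls of day 7 were Akr1c1 (-2.18 ± 0.36) and Obp3 (-1.48). The call of Obp3 was lost without CIDB animal 1 (-0.52, adjusted p = 0.625) or vehicle animal 2 or 3.

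Genes of lipid synthesis fell. Of 23 measured genes of fatty acid synthesis and desaturation, 9 were lower and 0 higher at day 3, against 1.41% of all genes, and 8 were lower and 1 higher at day 7, against 1.91%. The medians were -0.70 and -0.46, and 6 genes were called lower at both days. Srebf1, the transcription factor that drives this programme, fell, with -1.18 ± 0.28 at day 3 and -0.84 ± 0.28 at day 7. Acly, which makes cytosolic acetyl-CoA, read 10.59, 9.85 and 9.84 at day 3 against 11.43, 11.52 and 11.85, and 10.28, 10.29 and 9.55 at day 7 against 12.11, 10.76 and 10.95. Its differences were -1.51 ± 0.32 and -1.24 ± 0.32. The day 7 calls of Srebf1 and Acly were lost without vehicle animal 1, the highest of its group for both genes, with -0.52 (adjusted p = 0.271) and -0.82 (adjusted p = 0.104). Both were also lost without CIDB animal 3, and that of Srebf1 without CIDB animal 2.

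Among the desaturases Fads1, Fads2 and Scd, the change between days was called for Fads1 alone. It was not called for Fads2 (-1.01 ± 0.33, adjusted p = 0.139) or Scd (-2.11 ± 1.00, adjusted p = 0.401). Fads1, which makes arachidonate, read 11.23, 10.92 and 10.81 at day 3 against 11.91, 11.52 and 11.91, and 9.83, 9.81 and 8.66 at day 7 against 12.04, 11.53 and 11.54. Its fall was -0.79 ± 0.20 at day 3 and -2.27 ± 0.20 at day 7, and the change of -1.47 ± 0.28 was called (adjusted p = 0.000233, but 0.144 in a fit of the compared groups only). Fads2, which acts before it, fell at both days (-0.90 ± 0.23 and -1.91 ± 0.23), the first not called without CIDB animal 3 (-0.75, adjusted p = 0.0647). The elongase Elovl5 was called at day 7 (-1.05 ± 0.12), and its change of -0.97 ± 0.17 was called, though not in the fit of the compared groups only (adjusted p = 0.0607).

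Scd, the desaturase that makes oleate, read 11.16, 10.78 and 10.38 at day 3 against 12.07, 11.83 and 12.57, with no overlap, yet its difference of -1.39 ± 0.71 was not called. At day 7 it read 8.88, 7.66 and 8.02 against 12.83, 9.71 and 12.49, a fall of 11.2-fold (-3.49 ± 0.71, adjusted p = 4.92e-05), with 1 vehicle animal well below the other 2. CIDB at day 7 had the lowest Scd mean of all 136 groups. Thrsp, a lipogenic gene under thyroid hormone control, fell at both days (-1.64 ± 0.40 and -2.02 ± 0.40), as did Pklr, liver pyruvate kinase (-1.08 ± 0.29 and -1.67 ± 0.29). Fasn, fatty acid synthase, was not called at either day, with -0.99 ± 0.36 and -0.86 ± 0.36.

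Genes of cholesterol synthesis went from called falls to called rises. Of 19 measured, 3 were lower at day 3 (Insig1, Nsdhl and Pmvk) and 4 were higher at day 7 (Idi1, Sqle, Msmo1 and Hsd17b7), with medians of -0.33 and 0.13. No gene was in both sets, and 0 of the 19 changes between days were called. Sqle, squalene epoxidase, read 10.48, 10.61 and 9.44 at day 7 against 8.97, 8.64 and 8.39 and rose by 1.51 ± 0.34, with a change between days of 1.70 ± 0.48 (adjusted p = 0.0535). Insig1, the sterol sensor that retains SREBP in the endoplasmic reticulum, read 10.52, 9.10 and 9.09 at day 3 against 11.36, 11.50 and 11.42 and fell by 1.86 ± 0.40. At day 7 its vehicle animals ranged from 10.28 to 12.50, and the difference of -0.13 ± 0.40 was not called. The rises of Msmo1 and Hsd17b7 at day 7 were lost without CIDB animal 1 or 2 or vehicle animal 2 or 3 (0.65 to 0.92), and the fall of Pmvk at day 3 without CIDB animal 1 or 2 or vehicle animal 2 (-0.51, adjusted p = 0.163, without the last).

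Of 33 measured targets of PPARA and genes of fatty acid oxidation, 0 were higher and 1 lower at day 3, and 8 were higher and 0 lower at day 7, against 2.47% of all genes. Ech1, an enzyme of unsaturated fatty acid oxidation, read 10.20, 10.08 and 10.09 at day 3 against 10.40, 10.43 and 10.40, and 11.48, 11.46 and 12.04 at day 7 against 10.23, 10.36 and 10.40. It rose at day 7 by 1.33 ± 0.21, and the change of 1.62 ± 0.30 was called (adjusted p = 0.000114). The others were Vnn1 (1.41 ± 0.33), a pantetheinase, Eci1 (1.14), Cyp4a3 (1.00), Crat (0.98), Acot2 (0.87), Acot4 (0.80) and Cyp4a1 (0.67). The rises of Acot2, Acot4 and Cyp4a1 were not called without CIDB animal 3, that of Acot4 also not without vehicle animal 2 or 3, and that of Cyp4a1 also not without CIDB animal 1 or vehicle animal 1 or 2. Apoa4, an apolipoprotein of triglyceride-rich particles, fell at both days (-1.42 ± 0.34 and -2.54 ± 0.34).

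In glucose metabolism, 5 of 20 measured genes were lower at day 3, and 4 were lower and 1 higher at day 7, against 1.41% of all genes lower at day 3 and 1.91% at day 7. Pfkfb1, which makes the regulator of glycolysis, and Gys2, liver glycogen synthase, fell with Pklr at both days (-0.82 and -0.67 for Pfkfb1, -0.62 and -0.61 for Gys2). The day 7 call of Pfkfb1 was lost without CIDB animal 1 (-0.43, adjusted p = 0.244) or vehicle animal 3. Gys2 stood close to the 1.5-fold limit: its day 3 call was lost without CIDB animal 2 or 3 or vehicle animal 2 and against the mean of 3 corn oil groups (-0.30, adjusted p = 0.17), and its day 7 call without CIDB animal 1 or 2 or vehicle animal 3. Igfbp1, a binding protein of insulin-like growth factors that insulin represses, read 7.85, 9.25 and 8.63 at day 3 against 8.66, 9.80 and 8.09, and 9.95, 11.24 and 10.03 at day 7 against 8.41, 7.54 and 8.52. The groups overlapped at day 3 (-0.27 ± 0.57) and not at day 7, where it rose by 2.25 ± 0.57. The change of Igfbp1 between days, 2.52 ± 0.80, was not called (adjusted p = 0.119).

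Genes of the growth hormone and IGF axis were called at day 7 and not at day 3: besides Igfbp1, Igfbp2 rose by 1.62 ± 0.23, and Ghr, the growth hormone receptor, and Igfals, which stabilises circulating IGF, fell (-1.14 ± 0.17 and -1.11 ± 0.22). A second Ghr probe set differed by 0.03 at day 7. The change of Igfbp2 between days, 1.30 ± 0.32, was called, but not without CIDB animal 2 or vehicle animal 1 of day 3 or CIDB animal 1 or 2 of day 7 (1.16 to 1.26). Enzymes of the methionine cycle fell at day 3 (4 of 20 measured): Cbs, which draws homocysteine into cysteine synthesis, fell at day 3 (-1.09 ± 0.16) and at day 7 (-1.38 ± 0.16). Bhmt, which remethylates homocysteine, read 10.46, 12.30 and 12.42 at day 3 against 12.65, 12.82 and 12.93. Its call at day 3 was lost without CIDB animal 1 (-0.44, adjusted p = 0.49) or vehicle animal 3 (-1.01, adjusted p = 0.0509). Of the same list, Gss, glutathione synthetase, rose at day 7 by 1.09.

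Of 32 genes of the amino acid and unfolded protein responses, 2 were lower and 1 higher at day 3, and 6 were lower and 2 higher at day 7, against 1.91% and 2.47% of all genes. Sdf2l1 (-1.14 ± 0.19), Calr (-0.98 ± 0.12), Hyou1 (-0.95 ± 0.27), Pdia4 (-0.73) and Manf (-0.69), chaperones and their helpers, were lower at day 7, and Calr was also lower at day 3 (-0.78 ± 0.12). Nupr1, a stress-induced chromatin protein, fell at both days (-1.73 ± 0.36 and -1.22 ± 0.36), the second not called without vehicle animal 1 (-0.99, adjusted p = 0.0747). Ddit3, the transcription factor CHOP, rose by 0.82 ± 0.20 at day 7, a call that was lost without CIDB animal 2 (0.56, adjusted p = 0.0683), as was that of Hyou1 (-0.77, adjusted p = 0.071). Pdia4 fell under the 1.5-fold limit without CIDB animal 1 or vehicle animal 1 (-0.57 and -0.55), and Pdia4 and Manf did so against the mean of 3 corn oil groups (-0.49 and -0.53).

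**Figure D3:**
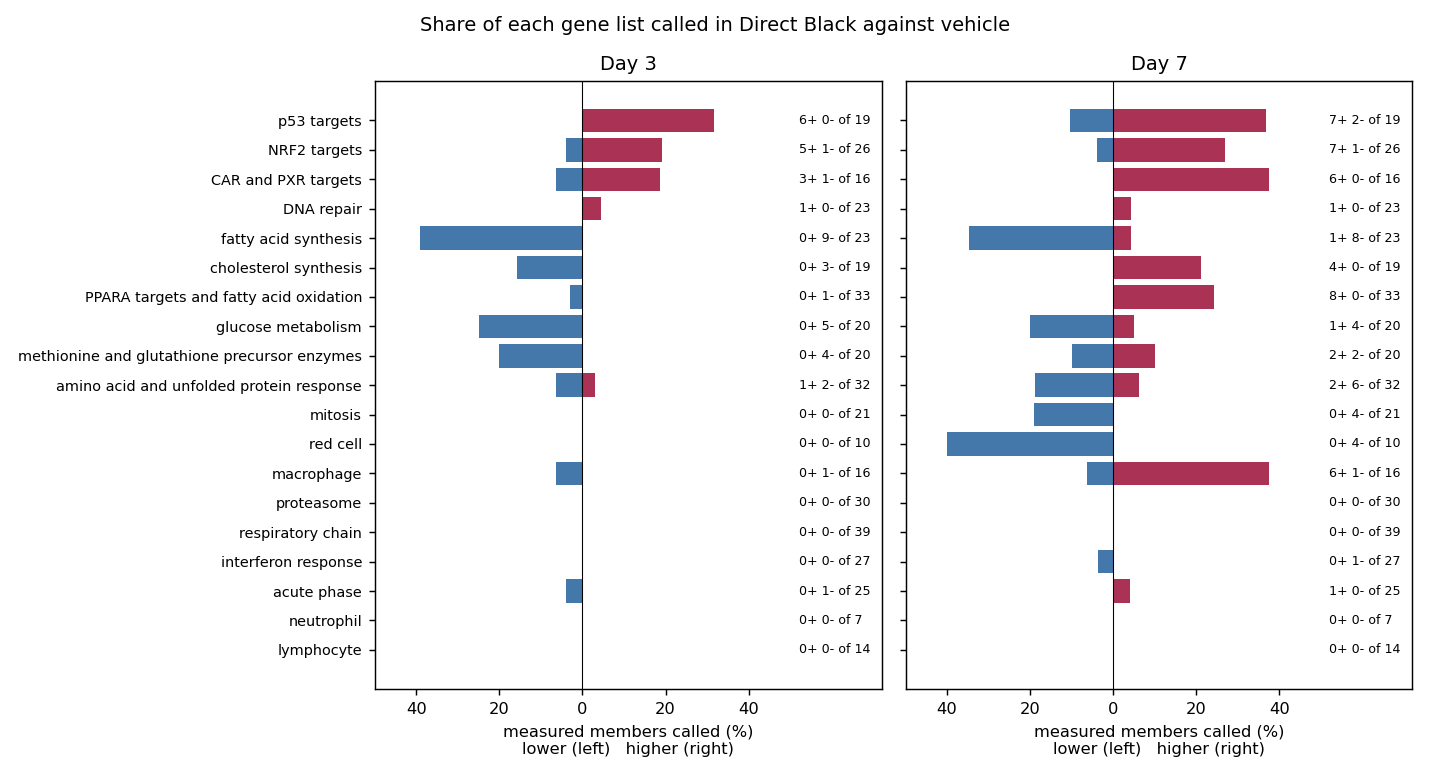
Share of the measured members of 19 gene lists that were called lower (left of 0) or higher (right of 0) in CIDB against vehicle at day 3 and day 7, in percent, with the counts beside each bar. Falls in fatty acid synthesis stand at 9 and 8 of 23 genes, and the macrophage, PPARA and red cell lists have bars at day 7 that were small or absent at day 3.

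Globin and haem genes of red cells fell between the days. The list of 10 measured markers had 0 called genes at day 3 and 4 lower at day 7, against 1.91% of all genes. Hbb, the beta chain of haemoglobin, read 13.63, 13.62 and 13.41 at day 3 against 14.03, 13.64 and 13.41 in vehicle, and 8.43, 8.79 and 8.87 at day 7 against 13.87, 13.25 and 13.80. The 2 groups overlapped at day 3 (-0.14 ± 0.31), and at day 7 all treated animals lay more than 4 log2 units below all vehicle animals. Hbb was 30.8-fold lower at day 7 (-4.94 ± 0.31, adjusted p = 1.42e-37), the largest fall of that day among the probe sets kept. The change between the days was -4.80 ± 0.44 (adjusted p = 1.71e-19). The Hbb probe set is of a kind that can cross-hybridise with related beta globins.

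Hba-a3, an alpha globin, read 9.05, 9.18 and 9.07 at day 7 against 12.16, 11.53 and 12.27 and fell by 2.89 ± 0.27, after a difference of -0.32 ± 0.27 at day 3. Alas2, the first enzyme of haem synthesis in red cell precursors, read 7.27, 7.69 and 7.36 against 10.38, 9.64 and 10.12 and fell by 2.61 ± 0.37. Both changes between days were called (-2.57 ± 0.38 and -2.17 ± 0.52), that of Alas2 not without CIDB animal 2 or vehicle animal 3 of day 3 (-2.02 and -1.89, adjusted p = 0.0581 and 0.0804). Bpgm, which sets the oxygen affinity of haemoglobin, fell by 1.04 ± 0.23 at day 7.

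The other 6 markers, Ahsp, Ank1, Gata1, Gypc, Rhag and Slc4a1, were not called. The mean level of the 10 markers was between 7.36 and 7.50 on the CIDB arrays of day 7 and between 8.38 and 8.71 on the other 9 arrays. CIDB at day 7 had the lowest group mean of all 136 groups for Hbb and Hba-a3 and the second lowest for Alas2. Of 8 measured genes of haem synthesis and breakdown, 1 was called, Ppox (-0.64 at day 7, but -0.52 without CIDB animal 3 and -0.53 without vehicle animal 1, under the 1.5-fold limit), and of 14 genes of iron handling 2 were higher and 2 lower at day 7. Among them the iron exporter ferroportin (Slc40a1) was higher (0.68, but 0.55 without CIDB animal 1 and 0.56 without vehicle animal 3) and the transferrin receptor Tfrc lower (-0.90), the second not without CIDB animal 1 or vehicle animal 1 or 2.

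**Figure D4:**
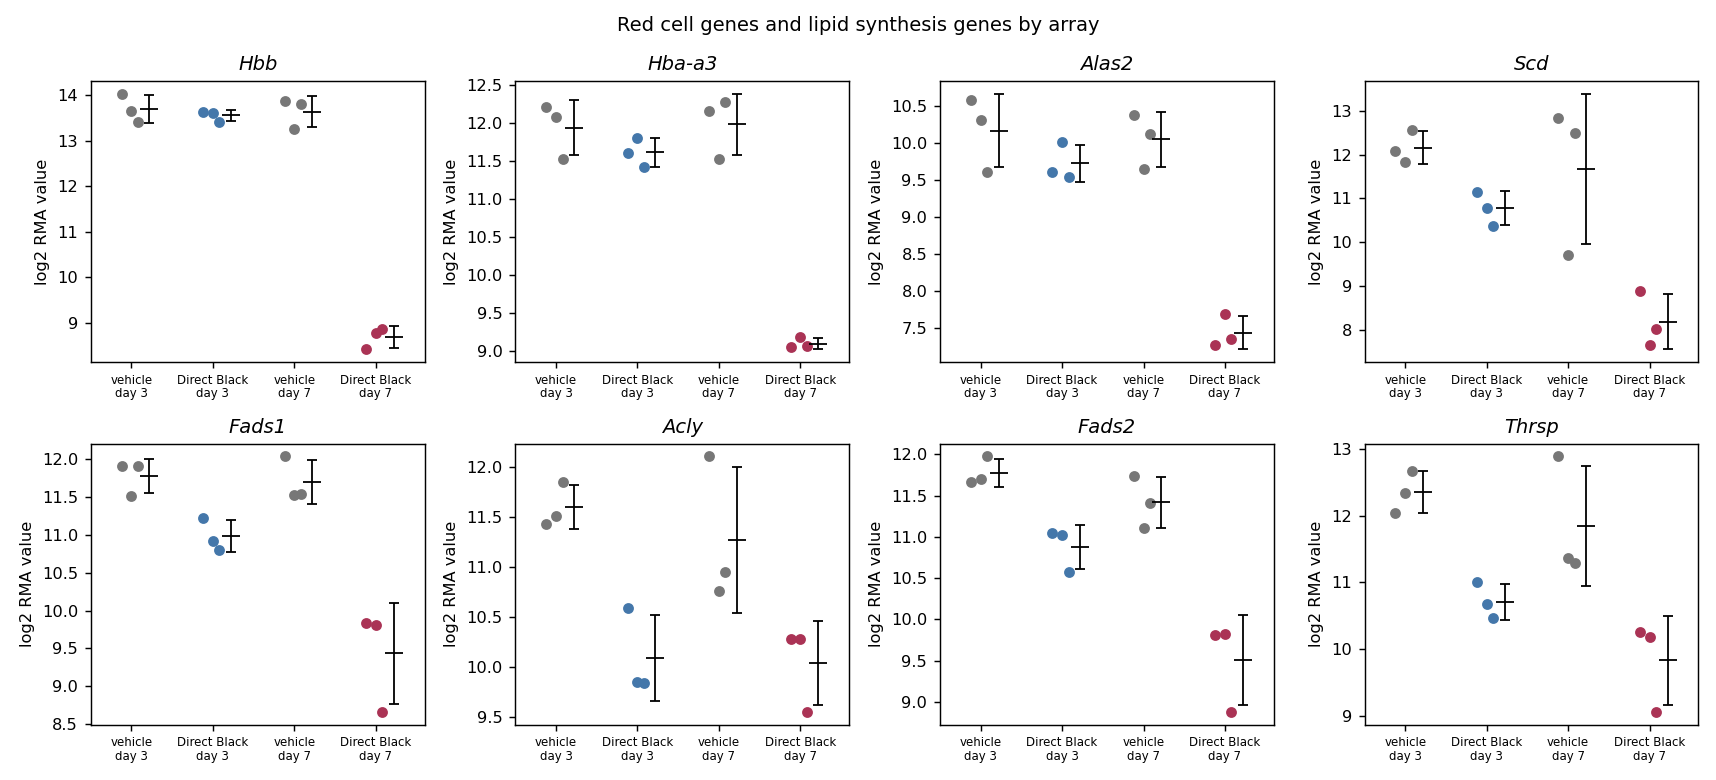
log2 RMA values of 3 red cell genes and 5 genes of lipid synthesis on the 12 arrays (points), with the mean and SD of each group of 3 (black). Hbb, Hba-a3 and Alas2 fall away from the other 3 groups only in CIDB at day 7, while Acly, Thrsp, Fads1 and Fads2 are already lower at day 3.

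Mitosis genes fell in part at day 7. Of 21 measured genes of mitosis, 0 were called at day 3 and 4 were lower at day 7, against 1.91% of all genes, with medians of -0.16 and -0.36. Cdk1, the kinase that starts mitosis, read 6.30, 6.39 and 5.98 at day 7 against 7.44, 7.06 and 7.42 and fell by 1.09 ± 0.33, a call that was lost without CIDB animal 3 (-0.97, adjusted p = 0.0701). Kif20a, a kinesin of cytokinesis, fell by 0.89 ± 0.24. The calls of Top2a (-0.68) and Cdc20 (-0.62) were lost against the mean of 3 corn oil groups and when 1 array was left out (in 5 of 6 cases for Top2a and in 6 of 6 for Cdc20), and none of the 4 other Cdc20 probe sets was called. Of 21 genes of DNA replication, Tyms, thymidylate synthase, was higher at both days (0.82 ± 0.12 and 0.92 ± 0.12), and Dut higher at day 7 (0.77). Prim1 was called lower at day 7 (-0.81), but not without any 1 of the CIDB animals, without vehicle animal 1 (-0.39, adjusted p = 0.438) or against the mean of 3 corn oil groups (-0.20, adjusted p = 0.578).

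Macrophage markers rose at day 7. Of 16 measured, 0 were higher and 1 lower at day 3, and 6 were higher and 1 lower at day 7, against 2.47% and 1.91% of all genes, with medians of 0.14 and 0.51. The mean level of the list was between 9.32 and 9.49 on the CIDB arrays of day 7 and between 8.89 and 9.25 on their vehicle arrays. At day 3 it was between 9.29 and 9.47 on the CIDB arrays and between 9.18 and 9.44 in vehicle, so the vehicle arrays of day 7 include the lowest levels of the 4 groups. Cd68, a lysosomal protein, read 9.19, 9.20 and 8.82 against 8.51, 8.05 and 7.70 and rose by 0.98 ± 0.21. Gpnmb, a membrane protein of lipid-laden macrophages, rose by 1.00 ± 0.33, Ctss by 0.90, C1qc by 0.71, C1qb by 0.70 and Fcer1g by 0.68. Against the mean of the 3 corn oil groups C1qb, C1qc, Ctss and Fcer1g were no longer called. C1qb and C1qc were also not called without CIDB animal 1 or 2 or vehicle animal 2 or 3, nor Fcer1g without CIDB animal 1 or vehicle animal 2 or 3, nor Gpnmb without CIDB animal 2 (0.78, adjusted p = 0.145) or vehicle animal 2 or 3. Cd14, the co-receptor for endotoxin, fell at both days (-1.0 ± 0.19 and -0.96 ± 0.19).

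Of 24 markers of stellate cells and fibroblasts, Dcn (1.39 ± 0.27) and Lum (0.98) were higher at day 7, against 2.47% of all genes, and Lum was not called without CIDB animal 2 (0.75, adjusted p = 0.168) or 3 or vehicle animal 1 or 2. Of 12 bile duct markers, Epcam (1.08 ± 0.25) and Tspan8 (0.90) were higher at day 7. The neutrophil, lymphocyte and endothelial lists had 0 called genes at both days, and so did 30 proteasome genes and 39 respiratory chain genes. Of 27 interferon genes, Rsad2 alone was called (-1.08 at day 7, lost without vehicle animal 1 with -0.87 and adjusted p = 0.0591), and of 25 acute phase genes 1 was called at each day.

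The change between the days was tested directly, as the CIDB difference at day 7 minus that at day 3. It was called for 96 probe sets (0.605%), 53 genes higher (0.509%) and 20 lower (0.192%). Of these 73 genes, 44 were called at day 7 only, 4 at day 3 only, 12 at both days and 13 at neither. After a second quantile normalization 58.2% of the called probe sets were higher, against 72.9% as deposited.

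Ifrd1, a regulator of transcription that responds to stress and growth signals, had the largest called rise. It read 8.41, 7.81 and 8.25 at day 3 against 7.19, 6.85 and 7.30, and 10.55, 10.99 and 10.07 at day 7 against 6.96, 6.58 and 6.62. The groups did not overlap at either day, although the day 3 call was lost without CIDB animal 1 or vehicle animal 2 (0.92 and 0.91, adjusted p = 0.0554 and 0.0571), and the rise grew from 2.06-fold to 14.1-fold (change 2.77 ± 0.40, adjusted p = 1.15e-07). Egr1, an immediate early transcription factor, rose by 2.89 ± 0.63 at day 7 after an uncalled 1.03 ± 0.63 at day 3. Its change between days, 1.87 ± 0.88, was not called (adjusted p = 0.401). Serpina7, thyroxine-binding globulin, rose by 2.82 ± 0.47 at day 7, and its change of 2.13 ± 0.67 was not called either (adjusted p = 0.11).

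Arsb, a lysosomal sulfatase, rose more at day 7 than at day 3 by 1.21 ± 0.27, Fkbp5, a glucocorticoid-induced chaperone, by 1.21 ± 0.27, and Id1, an inhibitor of differentiation factors induced by BMP signals, by 1.16 ± 0.28. A second Arsb probe set rose at both days (0.75 and 0.92), and its change was not called. The change of Fkbp5 was lost without CIDB animal 2 of day 7 (1.02, adjusted p = 0.0639), and so was that of Id1 (0.67, adjusted p = 0.345), which was also lost without CIDB animal 2 of day 3 or vehicle animal 3 of day 7. In a fit of the compared groups only neither was called (adjusted p = 0.233 and 0.456). Inhbe, an activin subunit made in hepatocytes, fell by 2.09 ± 0.25 at day 7 (change -1.48 ± 0.35, not called without CIDB animal 1 or vehicle animal 1 of day 7). Hao2, a peroxisomal oxidase, and Slc6a6, the taurine transporter, had changes of -1.73 ± 0.47 and -2.09 ± 0.54. That of Hao2 was lost when any 1 of 8 arrays was left out, and that of Slc6a6 when any 1 of 6 was.

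There were 2 genes called in opposite directions at the days, and neither pair of calls held when single arrays were left out. Retreg1, a receptor for autophagy of the endoplasmic reticulum, read 7.02, 7.98 and 7.59 at day 3 against 8.48, 9.26 and 9.04, and 10.27, 10.23 and 9.84 at day 7 against 8.34, 9.12 and 9.57. Its differences were -1.40 and then 1.10, with no overlap at either day, but the other Retreg1 probe set stood at -0.03 and 0.05. The day 3 call of the first was lost without CIDB animal 1 or vehicle animal 2 or 3 (adjusted p from 0.0546 to 0.105), and its day 7 call without any 1 of the CIDB animals or vehicle animal 1 or 2 (0.77, adjusted p = 0.253, without vehicle animal 1). Krt10, a keratin, read 4.81, 4.70 and 4.88 against 6.87, 5.39 and 6.08 at day 3, and 4.91, 7.17 and 6.27 against 5.58, 4.79 and 4.68 at day 7, where the groups overlapped. Its day 3 call was lost without vehicle animal 1 (-0.94, adjusted p = 0.177) and against the mean of 3 corn oil groups (-0.58, adjusted p = 0.206), its day 7 call without CIDB animal 2 (0.57, adjusted p = 0.4) or 3 or vehicle animal 2 or 3.

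The largest difference at day 3 in size belonged to Ugt2b, a glucuronosyltransferase of steroids and drugs, and it followed the animals. Ugt2b read 5.04, 5.37 and 5.45 on the CIDB arrays of day 3 against 11.72, 12.12 and 11.81 in vehicle, a difference of -6.60 ± 2.19 (adjusted p = 0.035). At day 7 it read 12.23, 4.96 and 12.13 in CIDB against 5.33, 12.28 and 12.13 in vehicle, so each group held 1 animal at the low level. Over all 421 arrays, 96 were below 8, 323 were above 10 and 2 lay between. Of the 30 corn oil arrays 8 were low, and 6 of the 10 corn oil groups held both levels. The call at day 3 was lost when any 1 of the 6 arrays was left out.

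CIDB was compared directly with DMN and with 2-NF at the same day, a difference that does not use the shared vehicle arrays. Doses and compounds differ together, so potency and compound cannot be told apart. Against DMN, 122 probe sets (0.769%) were called at day 3 and 588 (3.71%) at day 7. Against 2-NF, 122 (0.769%) were called at day 3 and 370 (2.33%) at day 7. In genes, 29 were higher (0.279%) and 45 lower (0.432%) than in DMN at day 3, and 170 (1.63%) and 248 (2.38%) at day 7. Against 2-NF the counts were 18 higher (0.173%) and 60 lower (0.576%) at day 3, and 117 (1.12%) and 149 (1.43%) at day 7. At day 3 the split moved with the scaling: after a second quantile normalization 60.9% of the called probe sets were higher than in DMN, against 49.2% as deposited, and 59.2% were higher than in 2-NF, against 41.0%.

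p53 targets were more often higher than lower in CIDB against either compound. At day 7, 6 of 19 were called higher than in DMN and 6 of 19 higher than in 2-NF, against 1.63% and 1.12% of all genes, while Steap3 and Xpc were lower than in both. At day 3 the counts were 4 and 2, against 0.279% and 0.173% of all genes. In a fit of the compared groups only, Ccng1 was not called at day 3 against DMN or 2-NF (adjusted p = 0.0724 and 0.102). Cdkn1a was not called there against DMN (adjusted p = 0.223). Mdm2 averaged 10.60 in CIDB, 8.77 in DMN and 8.86 in 2-NF at day 7, with differences of 1.83 ± 0.19 and 1.75 ± 0.19. Its differences at day 3 were 1.64 ± 0.19 and 1.13 ± 0.19, the first not called in a fit of the compared groups only (adjusted p = 0.0785). Ccng1 was higher by 1.23 ± 0.17 than in DMN and by 0.75 ± 0.17 than in 2-NF at day 7. The second was not called without 2-NF animal 3 (0.50, adjusted p = 0.0917) or in a fit of the compared groups only (adjusted p = 0.124). Cdkn1a was higher by 1.73 ± 0.31 and 1.54 ± 0.31 at day 7, while at day 3 the difference from 2-NF, 0.24 ± 0.31, was not called. Nhej1 was higher at both days than in either compound (1.73 ± 0.14 and 1.11 ± 0.14 at day 7). At day 3 its difference from 2-NF fell just under 1.5-fold without 2-NF animal 3 (0.58). In a fit of the compared groups only, Nhej1 was not called against DMN at day 3 (adjusted p = 0.0538) or against 2-NF at day 7 (adjusted p = 0.0559).

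Among NRF2 targets, Srxn1 was higher in CIDB than in both compounds at both days (1.01 ± 0.19 and 0.83 ± 0.19 at day 7). Its day 3 difference from DMN was not called in a fit of the compared groups only (adjusted p = 0.0684). Gsta3 averaged 10.67 in CIDB and 9.99 in 2-NF at day 7, a difference of 0.68 ± 0.51 that was not called, and 7.85 in DMN, from which it differed by 2.82 ± 0.51. Akr7a3 was lower than in 2-NF at day 7 (-1.40 ± 0.32). Of 26 NRF2 targets, 5 were higher and 2 lower than in DMN at day 7, and 1 was higher and 6 lower than in 2-NF.

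Genes of fatty acid synthesis were lower at day 7 than in either compound. Of 23 genes of fatty acid synthesis, 11 were lower and 0 higher than in DMN, and 11 lower and 0 higher than in 2-NF. Scd averaged 8.19 in CIDB against 12.96 in DMN and 12.98 in 2-NF, differences of -4.77 ± 0.71 and -4.79 ± 0.71. Hbb averaged 8.70 against 13.21 and 12.26, differences of -4.51 ± 0.31 and -3.57 ± 0.31, and Hba-a3 differed by -2.33 ± 0.27 and -1.67 ± 0.27. Of the 10 red cell markers 3 were lower and 1, Gypc, was higher than in each compound, with medians of -0.07 (DMN) and -0.02 (2-NF). Of the 3, Alas2 was not called against 2-NF without CIDB animal 1 (-1.17, adjusted p = 0.0579) or 2-NF animal 2 or 3 (-1.12 and -1.14, adjusted p = 0.066 and 0.0636). Ifrd1 was higher than in DMN by 2.67 and than in 2-NF by 2.69. Of the mitosis genes, 12 of 21 were lower than in DMN at day 7 and 0 of 21 were called against 2-NF. Of 27 interferon genes, 13 were lower than in DMN, among them Gbp2, a guanylate-binding protein, which averaged 5.81 in CIDB, 8.31 in DMN and 5.80 in vehicle.

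**Figure D5:**
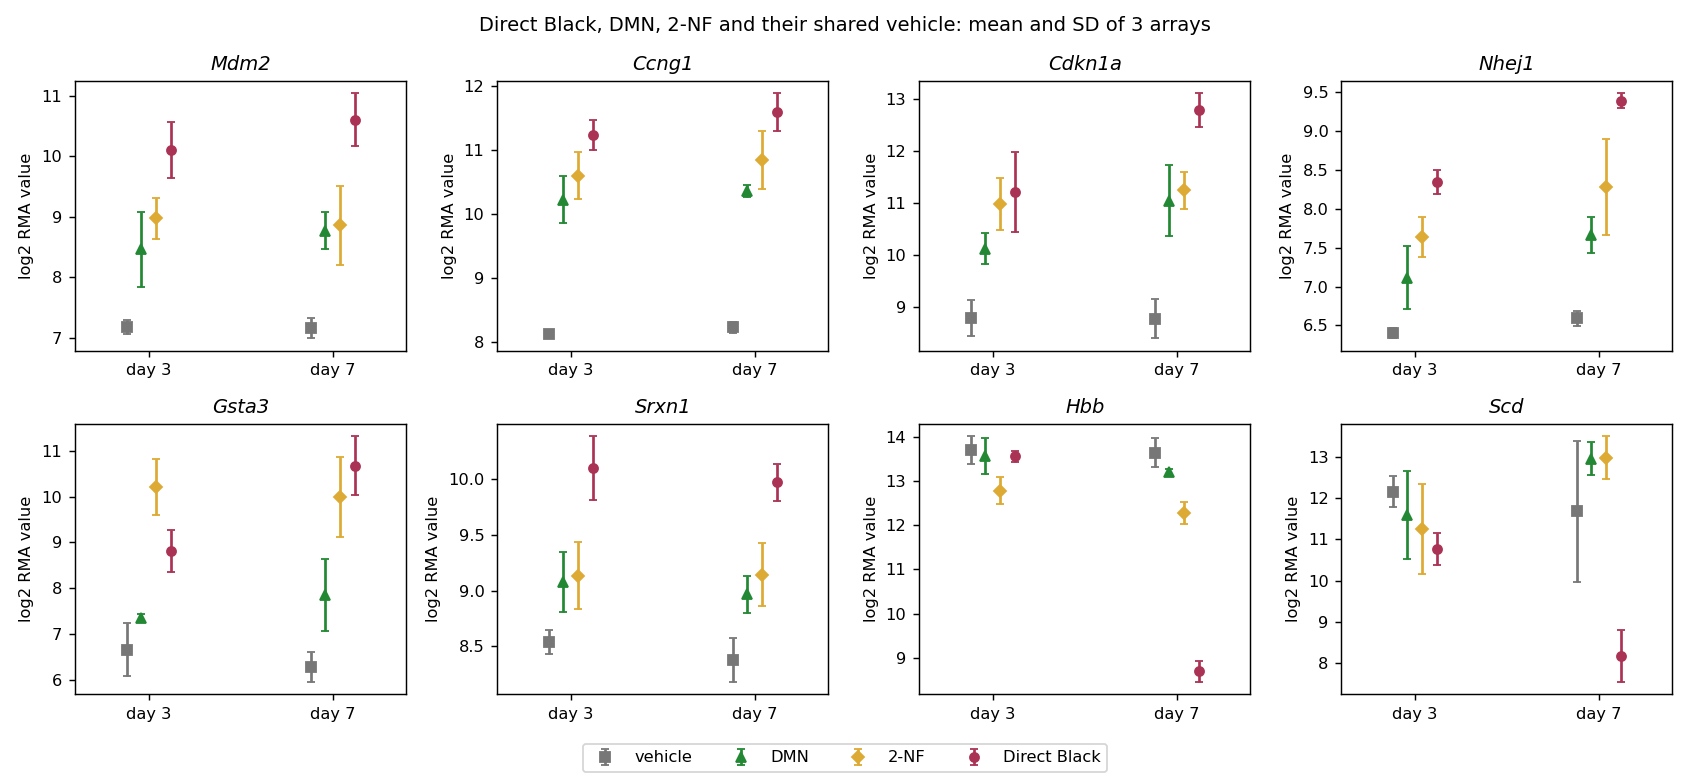
Mean and SD (3 arrays for each) of 8 genes in vehicle, DMN, 2-NF and CIDB at day 3 and day 7, in log2 RMA values. Mdm2, Ccng1, Nhej1 and Srxn1 are highest in CIDB at both days, and Hbb and Scd are far below the other groups in CIDB at day 7, where they average 8.70 and 8.19.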

How the data were processed

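The authors ran 1 Affymetrix RAE230A array for each liver, scanned it, converted the image with MAS 5.0 and computed the deposited log2 values of all arrays with RMA. RMA subtracts background, quantile-normalizes over arrays and summarises probes, so values are relative within an array and understate changes of dim probe sets. No depth exists for arrays, and precision is limited by 3 arrays in each group. Nothing in the labels gives a hybridisation batch.

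From these values, 1 mean for each of 136 groups was fitted over all 421 arrays with limma 3.58.1 in R 4.3.3 (residual df 285, prior df 4.67), and Benjamini-Hochberg adjustment ran over 15866 probe sets. Errors are standard errors of that fit. Of the probe sets, 12783 matched 1 symbol, 312 matched several, and 2771 are unnamed here. The probe set with the highest mean stood for a gene. Tested on simulated data with changes seeded at day 7 and none at day 3 (0 calls there), the day 7 contrast recovered 98 of 100 seeded 2-fold changes with 1 false call, and the change between days 93 of 100 with 2. The simulated noise was independent, with the same SD for a probe set in every group, as the fit assumes. These counts therefore do not give the accuracy where groups differ in spread. Genes were named from those with the largest called differences and from the members of 48 gene lists, and some with large differences are not described above. Among the latter were Vxn (2.65 at day 3 and 1.72 at day 7), Atp6v1d (2.08 and 2.51), Anp32a (-1.75 and -1.62) and Nrep (-2.78 at day 7). The groups compared, the members and the lists were chosen with earlier results of these data known. The alternatives tried were a fit restricted to the arrays compared, a second quantile normalization, a minimum mean of 6, an intensity trend, a replicate block, other fold limits, another vehicle and each array left out.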

Additional observations from a re-analysis of the deposited data

Results flagged for a closer look

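The effect of CIDB was called different between day 7 and day 3 in 73 genes, by the test of that difference itself. The named genes among them are given here as the log2 difference at day 7 minus that at day 3. The change was higher at day 7 for Ifrd1 (2.77), Retreg1 (2.5), Krt10 (2.42), Ech1 (1.62), Cdkn1a (1.59), Por (1.41), Ces2c (1.30), Igfbp2 (1.30), Fkbp5 (1.21) and Arsb (1.21). It was lower at day 7 for Hbb (-4.80), Hba-a3 (-2.57), Alas2 (-2.17), Slc6a6 (-2.09), Hao2 (-1.73), Inhbe (-1.48), Fads1 (-1.47), Cmtm6 (-1.11), Trim5 (-0.98) and Lima1 (-0.97). In a fit of the compared groups only, 40 of the 96 probe sets kept their call. The calls of Krt10, Cdkn1a, Por, Fkbp5, Slc6a6, Hao2, Fads1 and Trim5 were lost there. Those of Ces2c, Igfbp2, Alas2, Inhbe and Cmtm6 were lost without certain single arrays. The other probe sets of Retreg1 and Arsb changed by 0.07 and 0.17 and were not called. What lies behind these differences was not tested.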

How the results depend on the processing

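No called gene value that was tested again (309 values in 182 genes, not all of them described above) changed direction under any alternative. Of these, 188 kept their call under all alternatives other than the fold limit. Calls were lost for 58 of 309 values with a fit of the compared groups only, for 11 after a second quantile normalization, for 27 of 249 against the mean of 3 corn oil groups, and for 293 of 2046 values with 1 array left out. The filter at a mean of 6 left 10 values without a result.

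The fit of the compared groups only called 47 probe sets for the change between days and 26 for CIDB minus DMN at day 3. With no fold minimum 1415 probe sets were called at day 3 and 2440 at day 7, and with at least 2.5-fold 49 at day 3, 103 at day 7 and 24 for the change. With 1 array left out, the count was 322 to 351 at day 3, 595 to 676 at day 7, and 55 (without CIDB_3d replicate 2) to 120 (without CO_1C_7d replicate 1) for the change. Against DMN it was 104 to 166 and 554 to 608, and against 2-NF 86 to 180 and 334 to 407, at days 3 and 7. Without CO_1C_7d replicate 1, 70.2% of the day 7 calls were higher, against 59.7%.

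The values that changed sign were all uncalled. With 1 array left out, Cdkn1a CIDB minus 2-NF at day 3 ranged from -0.19 to 0.54 (-0.05 without 2-NF_3d replicate 3), Hbb change at day 3 from -0.28 to 0.0254, Igfbp1 change at day 3 from -0.65 to 0.20 (0.09 without CIDB_3d replicate 1), Insig1 change at day 7 from -0.57 to 0.58 (0.47 without CIDB_7d replicate 3), and Ugt2b change at day 7 from -2.43 to 2.27 (1.05 and 0.97 without CO_1C_7d replicates 2 and 3). Against the mean of 3 corn oil groups, Hbb change at day 3 was 0.20, Cyp1a1 change at day 3 0.15 and Insig1 change at day 7 0.0742.

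Same-numbered CIDB and vehicle arrays correlated in their deviations with r of 0.22, 0.407 and 0.064 at day 3. At day 7 r was -0.041, -0.104 and -0.099. The signs differed between the days, and the main fit did not pair the arrays. The replicate block gave 350, 634 and 96 called probe sets for day 3, day 7 and the change, 124 and 588 against DMN, and 121 and 370 against 2-NF. It changed the call of 0 of 309 gene values. The compared groups were balanced, so the block left each difference the same, and the variance was still pooled over all 421 arrays. The outcome of the block was therefore nearly fixed and cannot show whether pairing matters.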

Other observations

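Several genes of liver identity and rhythm also moved. Of 19 hepatocyte transcription factors, 2 were higher at each day and 0 lower. Foxa3 was higher at day 7 (1.44, after -0.23 at day 3), and Hnf4a was called at day 3 (0.80) and not at day 7 (0.57), nor at day 3 against the mean of 3 corn oil groups (0.55). Of 15 clock genes, 2 were higher and 2 lower at day 3 and 1 was higher and 1 lower at day 7. Nr1d2, a repressor of the clock, was higher at both days (1.04 and 1.14), while each of the other calls, Nr1d1, Nfil3 and Usp2 at day 3 and Per2 at day 7, was lost when single arrays were left out (Per2 -1.0, and -0.58 without vehicle animal 1). Of 22 genes of bile acid synthesis and transport, 1 was higher and 1 lower at each day, among them Abcc2, a canalicular exporter, higher at day 3 (0.86). The day 7 rise of Cyp8b1, which makes cholic acid (1.23), was lost without CIDB animal 2 or 3 or vehicle animal 1 or 3 (0.90, adjusted p = 0.256, without the last).

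Of 18 periportal genes, 0 were higher and 2 lower at day 3, and 2 were higher and 4 lower at day 7. The falls of day 7 included Gls2, liver glutaminase (-1.13), and Otc, of the urea cycle (-0.84). The rises were Hsd17b13 (0.67) and Asl (0.64, but 0.45 against the mean of 3 corn oil groups). Of 16 pericentral genes 2 were higher at both days (Aldh1a1 and Nr1i3), while 1 was lower at day 3 and 2 were lower at day 7. Gulo, which makes vitamin C, fell at both days (-0.64 and -1.07), and Rgn fell at day 7 (-1.28 ± 0.17). The day 3 fall of Gulo was under the 1.5-fold limit after a second quantile normalization (-0.55). Of 42 ribosomal protein genes 2 were called at each day, Rpl19 (0.70 and 1.01) and Rps27l. Of 14 heat shock genes 1 was higher at day 3 and 2 were lower at day 7, with Bag3 at -0.90. Of 13 histone genes 1 was higher at day 3 and 2 at day 7, H1f2 (0.69 and 0.92) and H2aj (0.73 at day 7), and the day 3 call of H1f2 was lost without any 1 of 5 of the 6 arrays.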
